A study of Mus musculus with 12 samples.

Results

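Interferon response and MHC genes were followed in the hypothalamus of diet-obese mice given celastrol, withaferin A or vehicle. The set was chosen by gene symbol and not by measured values: the interferon-induced Ifi, Ifit and Ifih1 symbols, interferon regulatory factors Irf1 to Irf9, Oas, Mx, Gbp and H2 genes, Stat2, Tap1, Tap2 and 10 further symbols such as Rsad2, Usp18 and B2m. It took in 97 of the 19938 genes that had a probe set of their own on the array. Of these 97, 53 had a mean log2 signal of at least 5.81, the 25th percentile of all genes, and were tested; 44 were dimmer and were not.

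Hypothalamic total RNA was measured on 12 one-colour arrays, 4 per group, which the labels call biological replicates. All mice were male C57BL/6J, 23 weeks old, raised from 3 weeks of age for 20 weeks on a diet with 45% fat, and all received intraperitoneal DMSO for 4 days. For the next 4 days the groups received a daily injection of DMSO, of celastrol at 100 µg/kg, or of withaferin A at 2 mg/kg. Celastrol is a pentacyclic triterpenoid quinone methide and withaferin A a steroidal lactone, both plant compounds described as leptin sensitisers that lower body weight in obese mice. Their doses differed, so a difference between them is one between these groups and not between equal doses.

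Interferons are cytokines that signal through JAK kinases to transcription factors that bind interferon-stimulated response elements (ISREs) in the promoters of antiviral genes. Viral RNA is sensed by proteins such as MDA5, the product of Ifih1, and by Toll-like receptors. In the brain, interferon-stimulated and MHC genes are expressed at low levels at rest, mainly in microglia, endothelium and other non-neuronal cells, and are induced by infection and inflammation.

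All values below are log2 signals as the authors processed them. Array medians over all probe sets ran from 6.89 to 6.98, and 0 pairs of arrays held identical values. Of the hypothalamus markers, 19 of 19 with a value were above the filter, with list means of 9.26 to 9.41 with DMSO, 9.11 to 9.27 with celastrol and 9.13 to 9.26 with withaferin A; 17 and 15 of the 19 were below 0 in the treated groups (medians −0.17 and −0.14). Markers of tissue that borders the hypothalamus were also read. Pituitary markers averaged 6.12 to 6.69 on the DMSO and withaferin A arrays and 6.65 to 8.34 on the celastrol arrays. Of those tested, 5 of 5 were above 0 in both treated groups (medians 1.24 and 0.26). Growth hormone, Gh, reached 10.96 on celastrol replicate 2 against 6.30 to 7.98 on the other 11. Thalamus markers averaged 7.90 to 9.10, 8.28 to 9.35 and 8.09 to 9.12 in the 3 groups, and 7 of 7 were above 0 in both treated groups (medians 0.23 and 0.15). The part of any difference in tissue in the results below was not tested, beyond a fit with pituitary and thalamus scores as covariates. Group means were fitted with limma, with p-values adjusted over the 14953 genes tested. Errors are standard deviations (SD) for means and standard errors (SE) for log2 differences, with n = 4 arrays per group. List averages, here and below, cover all genes of a list with a value, dim ones included. Counts above or below 0 and medians cover the tested genes only.

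Celastrol and DMSO were compared first, to ask which interferon and MHC genes differed after the compound. Among the 53 tested members, 1 passed an adjusted p of 0.05: Ifih1, which fell. That is 1.89% of the tested members, against 0.769% of all genes tested. At an unadjusted p under 0.05, 13 members (24.5%; 4 higher and 9 lower) stood against 10.4% of all genes. On 7 members (13.2%) all celastrol arrays lay below all DMSO arrays, against 4.5% of all genes: Ifih1, Ifit1, Ifit3, H2-T24, H2-Q2, H2-M10.2 and Gbp7. On 1 member (1.89%), Ifi30, all celastrol arrays lay above, against 2.71% of all genes. The median log2 difference of the 53 members was −0.05, with 20 above 0 and 33 below. That of all genes tested was −0.02 (6368 above 0, 8585 below). With the 50th percentile filter, which kept fewer members, the members' median was 0.0008 (8 above 0, 8 below).

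Withaferin A was compared with DMSO in the same way. None of the 53 members passed in limma's test (0 of 53), nor did any other gene (0% of all genes tested, but 172 genes and 0 members without DMSO replicate 3), while 4 members (7.55%) had an unadjusted p under 0.05 against 15.7% of all genes. These 4 were Ifit3, Ifit1, Ifih1 and Ifitm3, each with a mean below that of DMSO. On 2 members (3.77%), Ifit3 and Gbp3, all withaferin A arrays lay below all DMSO arrays, against 4.69% of all genes. On 0 members did all lie above, against 2.91%. The median log2 difference of the members was 0.03, with 35 above 0 and 18 below. For all genes tested it was −0.004 (7246 above 0, 7707 below). With renewed quantile normalization the members' median was −0.015 (24 above 0, 29 below). With the 50th percentile filter, which kept fewer members, it was −0.024 (7 above 0, 9 below). Both comparisons use the same 4 DMSO arrays.

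**Figure D1:**
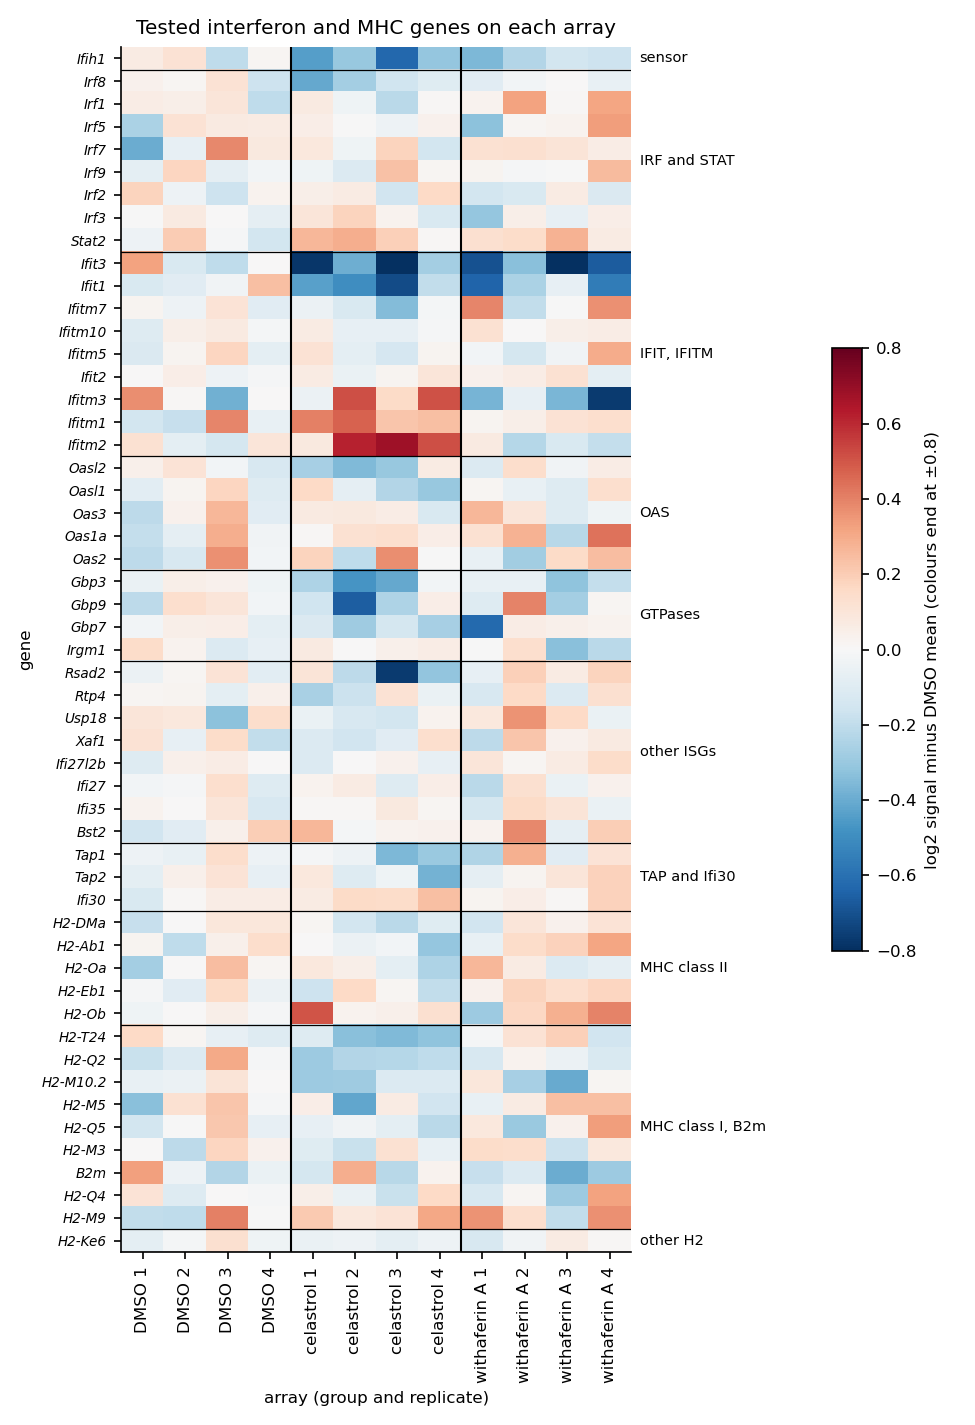
Each row is one of the 53 tested members, ordered by role, and each column one of the 12 arrays; colour gives the log2 signal minus the mean of the 4 DMSO arrays, ending at ±0.8. Most cells are pale; Ifit3, Ifit1 and Ifih1 are below the DMSO mean on all celastrol and withaferin A arrays, Ifitm2 is above it on all celastrol arrays, and single dark cells below it include Rsad2 on celastrol replicate 3 and Ifitm3 on withaferin A replicate 4.

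Ifih1 encodes MDA5, a cytoplasmic helicase that recognises long double-stranded RNA and starts interferon production. Its probe set (10483110) read 6.68, 6.73, 6.41 and 6.63 on DMSO replicates 1 to 4 and 6.18, 6.31, 5.99 and 6.30 on the celastrol arrays. The withaferin A arrays read 6.26, 6.38, 6.47 and 6.45. Every celastrol array lay below every DMSO array, with celastrol replicate 3 the lowest of all 12, and the withaferin A arrays fell between and overlapped both groups. Ifih1 was 1.34-fold lower after celastrol (log2 difference −0.42 ± 0.09 SE, 95% interval −0.61 to −0.23, adjusted p = 0.0433). After withaferin A the difference was −0.23 ± 0.09, which did not pass (adjusted p = 0.251), and withaferin A minus celastrol was 0.19 ± 0.09 (adjusted p = 0.29; 0.12 with renewed quantile normalization and 0.13 without celastrol replicate 3).

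The celastrol call on Ifih1 stood close to the threshold: it was kept under 8 of 24 alternative settings and lost under 16, with values from −0.51 to −0.35 and adjusted p from 0.0111 to 0.2. It was kept without DMSO replicate 3 or withaferin A replicate 1 and lost without any other single array, at an adjusted p of 0.154 without DMSO replicate 2 and 0.127 without celastrol replicate 3. In whole tissue, fewer cells of a type and less RNA per cell cannot be told apart. Markers of cells that could carry Ifih1 were also measured, beside a background of 8585 of 14953 genes below 0 after celastrol: microglia markers (12 of 14 tested, 9 of 12 below 0, median −0.13) averaged 7.87 to 8.0 with DMSO, 7.74 to 7.86 with celastrol and 7.70 to 7.96 with withaferin A. Brain endothelium markers (10 of 10 tested, 7 below 0, median −0.18) averaged 8.22 to 8.32, 7.96 to 8.11 and 7.93 to 8.25. Hypothalamus markers had 17 of 19 below 0, with a median of −0.17. In the microglia and endothelium lists 1 gene each fell after celastrol, P2ry13 (−0.56, adjusted p = 0.0431) and Tek (−0.55, adjusted p = 0.045), and the part of these cell types in the Ifih1 result was not tested.

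The start of Ifih1 transcription is printed from RefSeq (GRCm38.p6) because it holds the core letters of an ISRE, written here as GAAANNGAAA or, on the other strand, TTTCNNTTTC. The 28 bases run from position 23 to 50 after the start, at chr2:62646206-62646233, on the minus strand, with the ISRE letters in capitals.
Ifih1: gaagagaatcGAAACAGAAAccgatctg

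**Figure D2:**
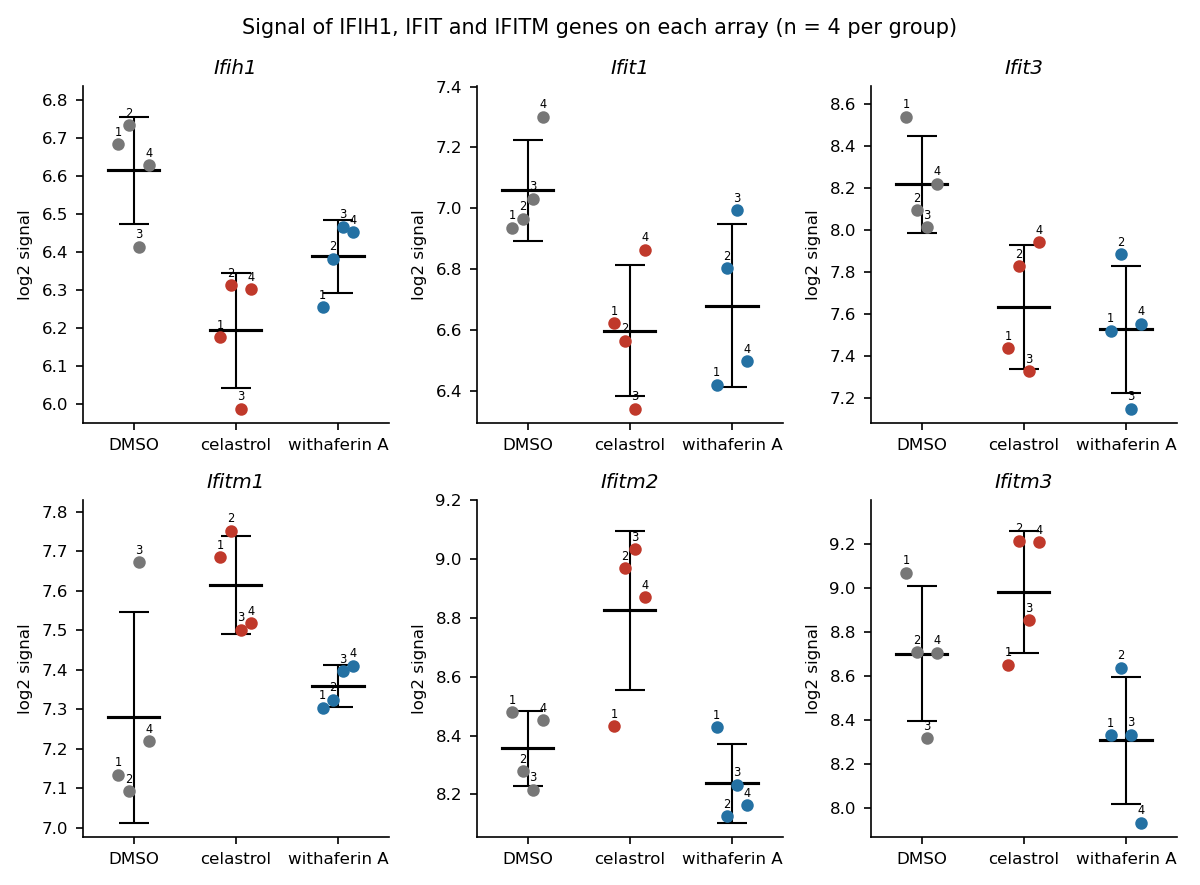
Points are the log2 signal of 6 members on each array, labelled by replicate number; the wide bar is the group mean and the whiskers 1 SD (n = 4), and each panel has its own axis that does not start at 0. All celastrol arrays lie below all DMSO arrays for Ifih1, Ifit1 and Ifit3, and the IFITM panels show celastrol means above both other groups.

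Other genes of the interferon pathway were described from 6 lists that share no gene with the members. Of the interferon ligands, 9 of 16 were tested and 1 rose after celastrol: Ifna2, an alpha interferon whose close relatives on the array make its assignment uncertain. It read 5.84, 6.07, 6.23 and 6.07 on DMSO arrays, 6.47, 6.54, 6.44 and 6.47 on celastrol arrays and 6.28, 6.48, 6.43 and 6.44 on withaferin A arrays, so both treated groups lay wholly above DMSO. The celastrol difference was 0.43 ± 0.07 (adjusted p = 0.0208) and the withaferin A difference 0.36 ± 0.07 (adjusted p = 0.155). The celastrol call was lost under 6 of 24 alternatives: without DMSO replicate 1, 2 or 4 or celastrol replicate 2 or 3 (adjusted p of 0.0511 to 0.0691), and with pituitary and thalamus scores as covariates (adjusted p = 0.224). The 24 include an adjusted p under 0.10 and a minimum of 1.2-fold, neither of which could lose the call. The withaferin A difference passed without DMSO replicate 3 (adjusted p = 0.0447).

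Of the nucleic acid sensors and adaptors, 13 of 14 were tested and 1 rose after celastrol: Tlr7, the endosomal receptor for single-stranded RNA. Tlr7 read 5.59, 5.55, 5.10 and 5.78 on DMSO arrays, 6.18, 6.32, 6.26 and 6.57 on celastrol arrays and 5.99, 5.51, 6.00 and 5.51 on withaferin A arrays. All celastrol arrays lay above all others; celastrol was the only group with a mean over the filter level of 5.81, so Tlr7 entered the test through the group where it is high, and its call is given only as a description. The difference was 0.83 ± 0.15 (adjusted p = 0.027), and 0.0419 with no filter. The call was lost under 10 of 24 alternatives, among them without DMSO replicate 1, 2 or 3 or celastrol replicate 2, 3 or 4 (adjusted p of 0.0542 to 0.0843), and most with the tissue scores as covariates (adjusted p = 0.244). Here too the 24 include an adjusted p under 0.10 and a minimum of 1.2-fold, which could not lose the call. Withaferin A minus DMSO was 0.25 ± 0.15 (adjusted p = 0.438). Myd88, the adaptor of TLR7, gave 0.32 ± 0.07 after celastrol (adjusted p = 0.0704), all 4 celastrol arrays (7.89 to 8.0) being above DMSO (7.53 to 7.80). Ddx58, which encodes the MDA5 relative RIG-I, gave −0.17 ± 0.07 (adjusted p = 0.332), with celastrol arrays at 7.07 to 7.24 and DMSO arrays at 7.25 to 7.51.

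No gene of the pathway lists passed after withaferin A with all arrays, and none of the remaining lists held a gene that passed after celastrol. Without DMSO replicate 3, Nlrc5 and Ticam1 also passed in limma's test after withaferin A (adjusted p = 0.0474 for each). With an intensity trend and robust prior, the negative regulator Ptpn11 passed after celastrol (adjusted p = 0.0478). Of the receptors and JAK kinases, 8 of 9 were tested; 7 were below 0 after celastrol and 7 after withaferin A, with medians of −0.08 and −0.11. Ifnar2, a chain of the type I interferon receptor, ranged from 9.15 to 9.35 with DMSO, 8.89 to 9.10 with celastrol and 8.92 to 9.03 with withaferin A; the treated arrays lay below, but the differences of −0.19 ± 0.06 (adjusted p = 0.228) and −0.25 ± 0.06 (adjusted p = 0.155) did not pass. Negative regulators of interferon signalling (10 of 10 tested) had 8 and 7 genes above 0 and medians of 0.13 and 0.08. The 26 tested of 35 other interferon-stimulated genes had medians of −0.01 and −0.01, with Epsti1 at 5.80 to 5.90 on DMSO, 5.68 to 5.88 on celastrol and 5.91 to 6.17 on withaferin A arrays (withaferin A minus DMSO 0.19 ± 0.06, adjusted p = 0.226, and 0.086 with renewed quantile normalization).

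**Figure D3:**
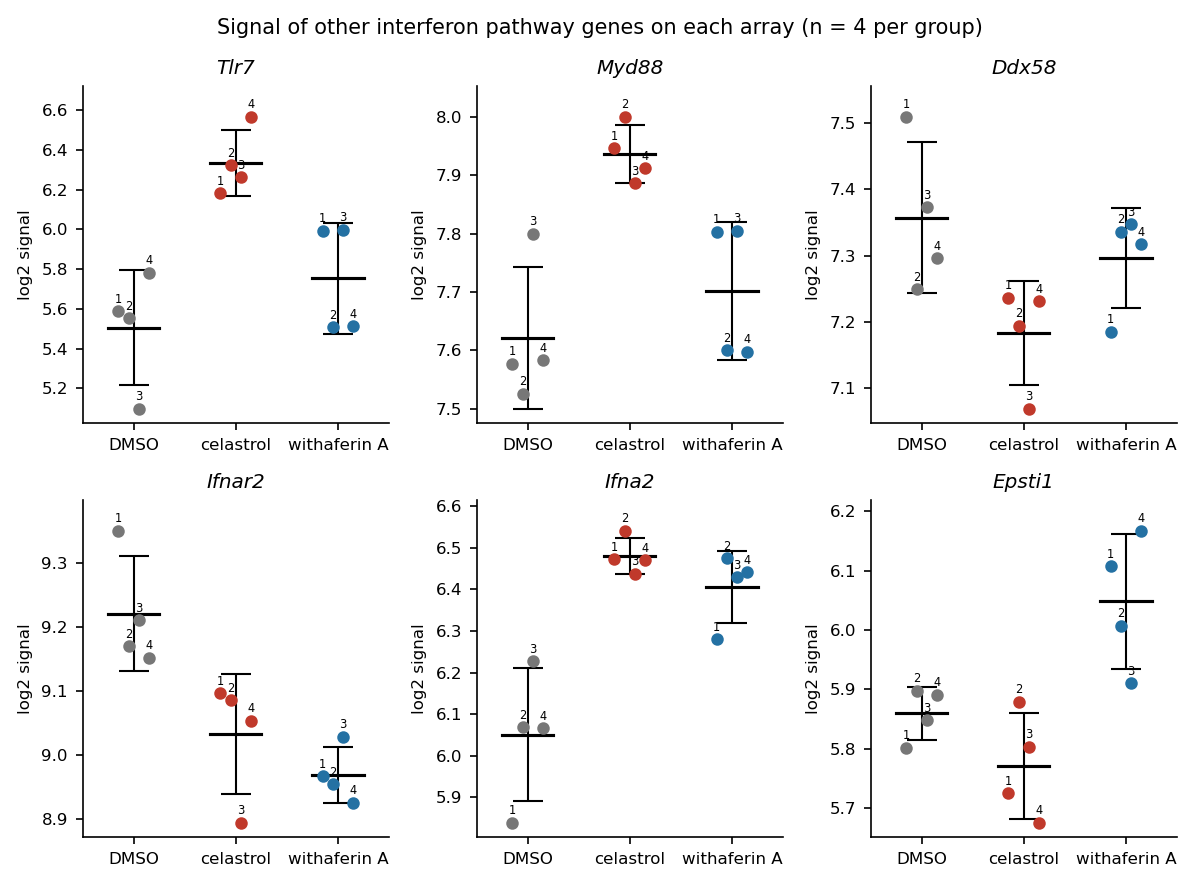
Points are the log2 signal of 6 pathway genes outside the member set on each array, labelled by replicate number, with the group mean (wide bar) and 1 SD (whiskers, n = 4); axes differ between panels and do not start at 0. Tlr7, Myd88 and Ifna2 show all celastrol arrays above all DMSO arrays, Ddx58 and Ifnar2 all celastrol arrays below, and Epsti1 all withaferin A arrays above.

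The IRF and STAT transcription factors among the members, 8 of 9 tested, had no gene past the threshold, with a median of 0.02 after celastrol and 0.04 after withaferin A. Irf8, which directs microglia and macrophage development, read 6.83, 6.81, 6.91 and 6.63 on DMSO arrays, 6.39, 6.52, 6.63 and 6.70 on celastrol arrays and 6.70, 6.77, 6.79 and 6.74 on withaferin A arrays. Its celastrol difference was −0.23 ± 0.07 (adjusted p = 0.213). Stat2, a subunit of the factor that binds ISREs, read 7.44, 7.69, 7.48 and 7.34 on DMSO arrays and 7.75, 7.78, 7.68 and 7.50 on celastrol arrays, an overlapping difference of 0.19 ± 0.08 (adjusted p = 0.425). Its partner Irf9 ranged from 7.72 to 8.08 over all 12 arrays. Irf7, the amplifier of alpha interferon genes, was lowest on DMSO replicate 1 (5.85) and highest on DMSO replicate 3 (6.63), so that the DMSO arrays alone spanned all others. Irf1 gave −0.04 ± 0.09 after celastrol and 0.17 ± 0.09 after withaferin A, and neither passed (adjusted p = 0.917 and 0.397). Its other probe set differed by −0.17 and −0.07 in mean, and with all probe sets averaged the withaferin A value was 0.048. Irf4, the ninth, was dim.

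IFIT proteins bind viral RNA that lacks the cap of host mRNA, and IFITM proteins sit in membranes and hinder viral entry. Together 9 of their 12 genes were tested; none passed, and their medians of −0.02 after celastrol and 0.03 after withaferin A cover genes far apart. Ifit3 (10462618) had the lowest difference of all 53 members in both comparisons with DMSO. It read 8.54, 8.09, 8.02 and 8.22 on DMSO arrays, 7.44, 7.83, 7.33 and 7.94 on celastrol arrays and 7.52, 7.89, 7.15 and 7.55 on withaferin A arrays. Every treated array lay below every DMSO array, and the 2 treated groups overlapped. The differences were −0.58 ± 0.17 for celastrol (95% interval −0.94 to −0.23, adjusted p = 0.157) and −0.69 ± 0.17 for withaferin A (−1.05 to −0.33, adjusted p = 0.155), the latter 1.61-fold lower, and neither passed.

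Ifit1 (10462623) read 6.94, 6.97, 7.03 and 7.30 on DMSO arrays, 6.62, 6.56, 6.34 and 6.86 on celastrol arrays and 6.42, 6.80, 6.99 and 6.50 on withaferin A arrays. The celastrol arrays were all below DMSO, while withaferin A replicate 3 reached into the DMSO range. The differences were −0.46 ± 0.13 (adjusted p = 0.164) and −0.38 ± 0.13 (adjusted p = 0.228). Ifit2 lay within 7.09 to 7.29 on all 12 arrays. Ifit3 and its near copy Ifit3b can share probes, so the assignment of the Ifit3 signal is uncertain; the probe set given to Ifit3b was dim.

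Ifit1 and Ifit3 lie close together on chromosome 19, and stretches of both promoters are shown because each holds the ISRE letters, in capitals, at a pair of positions. They are from RefSeq (GRCm38.p6), plus strand: chr19:34640775-34640823, bases −114 to −66 from the start of Ifit1, and chr19:34583363-34583426, bases −166 to −103 from the start of Ifit3.
Ifit1: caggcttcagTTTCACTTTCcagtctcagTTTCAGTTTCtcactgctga
Ifit3: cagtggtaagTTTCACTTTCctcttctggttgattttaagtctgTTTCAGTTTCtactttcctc

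Ifitm2, Ifitm1 and Ifitm3 had the highest differences among the tested members after celastrol, while Ifitm5, Ifitm7 and Ifitm10 lay between −0.13 and −0.02; none of the 6 passed. Ifitm2 (10383756) read 8.48, 8.28, 8.22 and 8.45 on DMSO arrays, 8.43, 8.97, 9.03 and 8.87 on celastrol arrays and 8.43, 8.13, 8.23 and 8.16 on withaferin A arrays. On celastrol, 3 arrays lay above all others and replicate 1 sat in the DMSO range. The difference from DMSO was 0.47 ± 0.12 (adjusted p = 0.0985); it passed without celastrol replicate 1 (0.60, adjusted p = 0.0244) and with an intensity trend and robust prior (adjusted p = 0.0478). The other probe sets for Ifitm2 differed by 0.41 and 0.52 in mean between celastrol and DMSO and by −0.09 and 0.01 between withaferin A and DMSO.

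Ifitm1 read 7.13, 7.09, 7.67 and 7.22 on DMSO arrays, 7.69, 7.75, 7.50 and 7.52 on celastrol arrays and 7.30, 7.32, 7.40 and 7.41 on withaferin A arrays. DMSO replicate 3 sat among the celastrol arrays. With it the celastrol difference was 0.33 ± 0.11 (adjusted p = 0.22). Without it the difference was 0.47, which passed (adjusted p = 0.0293), as it did with array weights (0.42, adjusted p = 0.0416). The other probe set for Ifitm1 read 5.74 to 5.87 on DMSO arrays, near the filter level of 5.81. It differed from DMSO by 0.18 in mean after celastrol and −0.05 after withaferin A, with overlapping arrays. With all probe sets averaged the celastrol value was 0.26. Ifitm3 read 9.07, 8.71, 8.32 and 8.71 on DMSO arrays, 8.65, 9.21, 8.85 and 9.21 on celastrol arrays and 8.33, 8.64, 8.33 and 7.93 on withaferin A arrays. The DMSO arrays of Ifitm3 overlapped both treated groups (0.28 ± 0.17, adjusted p = 0.628, and −0.39 ± 0.17, adjusted p = 0.295), and the celastrol value was 0.15 without DMSO replicate 3 and 0.095 with pituitary and thalamus scores as covariates. Ifitm1, Ifitm2 and Ifitm3 are close paralogs, so their probe sets may share signal and are not independent of one another.

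Start regions of Ifitm2 and Ifitm3 hold the same ISRE letters, in capitals, and are given for comparison with the IFIT promoters. Both are on the minus strand of chromosome 7 (RefSeq, GRCm38.p6): chr7:140955988-140956017, bases −56 to −27 of Ifitm2, and chr7:141010715-141010743, bases 2 to 30 after the start of Ifitm3.
Ifitm2: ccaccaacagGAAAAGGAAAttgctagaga
Ifitm3: gGAAAAGGAAActtctgaGAAACCGAAAc

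A promoter window of 250 bases before to 50 after the start was found for 73 of the 97 members. The ISRE letters on either strand stood in 27 of the 73 (37.0%), against 3.99% of the 27025 genes and 3.44% of the 32851 windows in the table; matches may overlap one another, as in Bst2. The letters TTCNNNGAA, the core of the gamma-activated site, which answers to interferon gamma, stood in 14 of 73 (19.2%) against 9.55% of genes. Among the tested members, the 15 with the ISRE letters had a median of 0.02 after celastrol (8 above 0, 7 below) and the 28 without them −0.05. After withaferin A these medians were −0.12 (5 above 0, 10 below) and 0.03 (21 above, 7 below). The 15 genes include both Ifit3, the lowest tested member after celastrol, and Ifitm2, the highest, neither of which passed. A match describes letters only and not binding.

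OAS enzymes make the messenger that activates RNase L, and MX proteins are antiviral GTPases; 5 of 13 were tested, none passed, and Mx1 and Mx2 were dim. Oasl2 read 8.04, 8.10, 7.97 and 7.87 on DMSO arrays, 7.73, 7.64, 7.69 and 8.06 on celastrol arrays and 7.89, 8.13, 7.97 and 8.06 on withaferin A arrays. On celastrol, 3 arrays lay below DMSO and replicate 4 within it, a difference of −0.21 ± 0.09 (adjusted p = 0.399), or −0.10 with pituitary and thalamus scores as covariates. Oas1a ranged from 5.92 to 6.40 on DMSO, 6.12 to 6.25 on celastrol and 5.89 to 6.55 on withaferin A arrays.

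The interferon-inducible GTPases attack the vacuoles of intracellular pathogens; 4 of 10 were tested, with medians of −0.23 after celastrol and −0.11 after withaferin A and no gene past the threshold. Gbp3 read 6.50, 6.60, 6.59 and 6.52 on DMSO arrays, 6.31, 6.08, 6.15 and 6.54 on celastrol arrays and 6.49, 6.49, 6.23 and 6.37 on withaferin A arrays. The withaferin A arrays were all below DMSO, by as little as 0.01 between the nearest arrays, and celastrol replicate 4 was within DMSO. The differences were −0.29 ± 0.09 (adjusted p = 0.213) and −0.16 ± 0.09 (adjusted p = 0.408), and −0.072 and −0.077 with pituitary and thalamus scores as covariates; the latter was −0.10 without withaferin A replicate 3. Gbp7 ranged from 7.35 to 7.48 on DMSO and 7.14 to 7.31 on celastrol arrays, while withaferin A replicate 1 was alone at 6.81 with the other 3 at 7.46 to 7.49. Celastrol replicate 2 was the lowest of the 12 arrays for Gbp3 and Gbp9 (5.72), and the mean of the 4 GTPases on it was −0.35 from DMSO against −0.19 to −0.04 on the other celastrol arrays.

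The other interferon-stimulated members, 8 of 10 tested, had medians of −0.05 and 0.06 and no gene past the threshold. Rsad2, encoding the antiviral enzyme viperin, read 6.28, 6.34, 6.43 and 6.24 on DMSO arrays, 6.43, 6.11, 5.56 and 6.01 on celastrol arrays and 6.26, 6.52, 6.39 and 6.50 on withaferin A arrays. The celastrol arrays ran from the top of the DMSO range to the lowest value of all 12, with a difference of −0.30 ± 0.14 (adjusted p = 0.461), which was −0.14 without celastrol replicate 3. Usp18, which removes ISG15 from proteins and restrains the type I receptor, ranged from 6.23 to 6.70 on DMSO, 6.41 to 6.58 on celastrol and 6.50 to 6.91 on withaferin A arrays. Bst2, encoding the virus-tethering protein tetherin, ranged from 7.18 to 7.52, 7.31 to 7.59 and 7.25 to 7.71. Both overlapped in all groups.

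MHC class I molecules, with beta-2 microglobulin, present peptides to CD8 T cells. Of the 20 class I and B2m genes 9 were tested, none passed, and 8 of the 9 were below 0 after celastrol (median −0.10) against 4 of 9 after withaferin A (median 0.04). H2-T24 read 6.60, 6.46, 6.38 and 6.34 on DMSO arrays, 6.34, 6.11, 6.09 and 6.12 on celastrol arrays and 6.43, 6.56, 6.64 and 6.29 on withaferin A arrays. Celastrol replicate 1 came within rounding of the lowest DMSO array and the other 3 lay well under it, a difference of −0.28 ± 0.08 (adjusted p = 0.191). H2-Q2 read 7.91, 7.98, 8.39 and 8.08 on DMSO and 7.80, 7.86, 7.86 and 7.89 on celastrol arrays, a gap of 0.02 between nearest arrays and a difference of −0.24 ± 0.09 (adjusted p = 0.294) that was −0.14 without DMSO replicate 3. B2m, with the highest signal of the group, read 12.23, 11.86, 11.67 and 11.85 on DMSO arrays, 11.76, 12.19, 11.68 and 11.93 on celastrol arrays and 11.72, 11.80, 11.50 and 11.61 on withaferin A arrays, with all groups overlapping.

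The classical class I genes H2-K1 and H2-D1 were read by 2 probe sets that name both and so lay outside the set. These gave 9.46 to 9.67 and 8.07 to 8.22 with DMSO, 9.51 to 9.59 and 8.04 to 8.25 with celastrol and 9.45 to 9.66 and 8.08 to 8.43 with withaferin A, overlapping throughout. Isg15, the ubiquitin-like interferon product, was likewise read with a second gene, at 5.99 to 6.14, 5.88 to 6.02 and 5.70 to 6.50. In all, 15 probe sets named several genes of these families. Of these, only that of Irgm2 and Igtp had all celastrol arrays (6.15 to 6.33) below all DMSO arrays (6.33 to 6.48), level at 2 decimals, and none had all withaferin A arrays on one side of DMSO. H2 genes are highly alike, so single-symbol H2 probe sets can share signal too.

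Peptide supply and class II genes showed no call. Tap1 and Tap2, the transporter that loads peptides onto class I, ranged from 6.89 to 7.10 and 7.58 to 7.77 on DMSO, 6.60 to 6.95 and 7.28 to 7.75 on celastrol, and 6.71 to 7.24 and 7.59 to 7.84 on withaferin A arrays. Ifi30, a lysosomal thiol reductase that prepares antigens for class II, read 7.36, 7.49, 7.54 and 7.54 on DMSO and 7.55, 7.63, 7.63 and 7.72 on celastrol arrays. The celastrol arrays were all above DMSO, by 0.15 ± 0.06 on average, which did not pass (adjusted p = 0.388). The list of antigen processing and peptide loading genes that are not members (18 of 20 tested) had 9 above and 9 below 0 after celastrol and 4 above and 14 below 0 after withaferin A, with none past the threshold.

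MHC class II genes are transcribed mainly in antigen-presenting cells, and 5 of 8 were tested, with H2-Aa among the dim ones. All 5 were above 0 after withaferin A (median 0.13) and 4 of 5 below 0 after celastrol (median −0.05), with adjusted p of 0.442 or more in both. H2-Ab1 read 5.99, 5.77, 6.01 and 6.11 on DMSO arrays, 5.97, 5.92, 5.95 and 5.66 on celastrol arrays and 5.91, 6.12, 6.16 and 6.29 on withaferin A arrays. H2-Eb1 read 7.09, 7.01, 7.25 and 7.05, then 6.93, 7.26, 7.11 and 6.90, then 7.13, 7.28, 7.23 and 7.27. The groups overlapped for both. The dim H2-Aa, which was not tested, ranged from 5.66 to 6.18 on DMSO, 5.52 to 5.61 on celastrol and 5.70 to 5.93 on withaferin A arrays. Its celastrol arrays lay below all others, with a difference in mean of −0.36 from DMSO. The dim H2-Ea and H2-Eb2 differed by 0.14 and −0.04 in mean, with overlapping arrays. Markers of dendritic cells and monocytes (4 of 9 tested) averaged 5.92 to 6.06 on DMSO, 5.96 to 6.00 on celastrol and 6.05 to 6.12 on withaferin A arrays. Those of B cells (3 of 5 tested) averaged 5.54 to 5.83, 5.58 to 5.70 and 5.60 to 5.97. Mostly dim markers of perivascular and meningeal macrophages (2 of 7 tested) averaged 5.52 to 5.65, 5.67 to 5.76 and 5.71 to 5.75, with both treated groups above DMSO. The part of these cells in the class II values was not tested.

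The 44 dim members had means of 4.00 to 5.76 and no test. They held all 9 genes of the p200 family of DNA-binding interferon-inducible proteins, 11 class I genes, 8 OAS and MX genes, 6 GTPases, 3 class II genes, 3 IFIT and IFITM genes, 2 other interferon-stimulated genes, Irf4 and H2-K2. Of the last tested member, H2-Ke6, an enzyme gene named for its place in the H2 region, signals lay within 8.56 to 8.82.

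**Figure D4:**
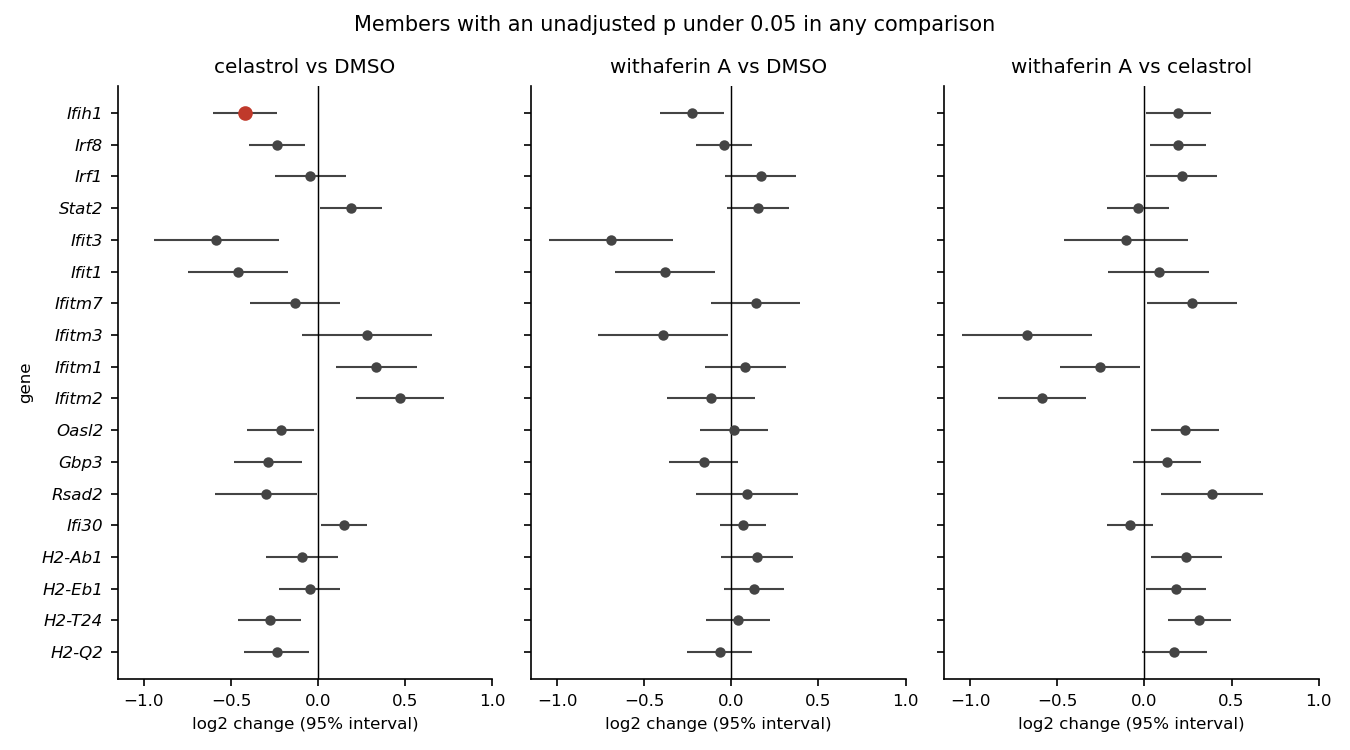
Points are log2 differences with 95% intervals from limma (n = 4 arrays per group) for the 18 members with an unadjusted p under 0.05 in at least 1 of the 3 comparisons, 1 panel per comparison. Ifih1 after celastrol, in red, is the only one past an adjusted p of 0.05.

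The compounds were last compared with each other, at doses that differed. None of the 53 members passed in limma's test (0 of 53) against 0.0468% of all genes. At an unadjusted p under 0.05, 12 members (22.6%; 9 higher and 3 lower after withaferin A) stood against 16.1% of all genes. The 3 lower ones were Ifitm1, Ifitm2 and Ifitm3, on which all withaferin A arrays lay at or below the lowest celastrol array. That is 5.66% of the members, near the 5.35% of all genes. The other Ifitm1 probe set and probe set 10553299 of Ifitm2 overlapped between the compounds, while 10569014 of Ifitm2 did not. On Irf8 and H2-Q2 (3.77% of the members) all withaferin A arrays lay above all celastrol arrays, near the 3.92% of all genes. The members' median was 0.08 (36 above 0, 17 below), and that of all genes tested 0.01 (8208 above 0, 6745 below).

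Ifitm2 came nearest to the threshold, withaferin A minus celastrol being −0.59 ± 0.12 (95% interval −0.84 to −0.34, adjusted p = 0.0823); it passed without celastrol replicate 1 (adjusted p = 0.0311) or withaferin A replicate 1 (adjusted p = 0.0471). Ifitm3 differed by −0.67 ± 0.17 (adjusted p = 0.135) and Ifitm1 by −0.26 ± 0.11 (adjusted p = 0.272). Rsad2 had the highest difference, 0.39 ± 0.14 (adjusted p = 0.211; 0.23 without celastrol replicate 3), and H2-T24 followed with 0.32 ± 0.08 (adjusted p = 0.148). Ifitm7, H2-Ab1, Oasl2, Irf1, Irf8 and H2-Eb1 differed by 0.27, 0.24, 0.23, 0.21, 0.19 and 0.18, with adjusted p of 0.242 to 0.294; renewed quantile normalization gave 0.15 for H2-Ab1 and 0.12 for Irf8, and the covariates 0.29 for H2-Eb1. For Ifit1 and Ifit3, the intervals of the difference between compounds were −0.21 to 0.37 and −0.46 to 0.25 (adjusted p = 0.794 and 0.78); a difference of either sign within those bounds is possible at these arrays' spread.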

How the data were processed

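The deposited values are log2 signals of 35556 probe sets, made by the authors with RMA per the submitters' processing notes; its version is not given in the sources used here. RMA puts arrays on a common scale and compresses low signals, so small fold changes of dim genes can be understated. Of the probe sets, 21789 had 1 gene symbol, 1621 several and 12146 none; 21698 were matched by gene ID to RefSeq (GRCm38.p6), and 0 symbols changed. Each of 19938 genes was read by its probe set with the highest mean. Genes below the 25th percentile of gene means (5.81) were left out.

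The 3 groups were modelled together in limma 3.58.1 (lmFit, eBayes, R 4.3.3), with 9 residual and 4.44 prior degrees of freedom, and compared pairwise with two-sided tests. P-values were adjusted by Benjamini-Hochberg over 14953 genes, with a threshold of 0.05. The steps were tested on simulated data. The number of arrays limits the precision.

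Members were taken by a rule on gene symbols that uses no measured value; that rule, the role groups and the lists were drawn up with earlier results of these data known. Named members were drawn mainly from those past the threshold and the up to 3 with the smallest p of each role group and comparison. A fixed list of well-known members and the brightest member of a role group were added. From each pathway list, genes past the threshold or else the up to 2 with the smallest p could be named, as could markers that moved with a result. Not every gene that these rules allow is named, and Ddx58 was given beside Ifih1 outside them. Alternatives changed the filter, the choice of probe set, the scaling, the model, the arrays included and the threshold.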

Additional observations from a re-analysis of the deposited data

Results flagged for a closer look

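In 60 sets of 4 arrays (18 followed members and the pathway genes past the threshold, in 3 groups), 3 held an array far from the other 3 by Dixon's criterion; chance gives about 1 in 20. H2-Ab1 was 5.66 on celastrol replicate 4, against 5.92 to 5.97 on the other celastrol arrays. H2-T24 was 6.34 on celastrol replicate 1, against 6.09 to 6.12. Irf1 was 6.60 on DMSO replicate 4, against 6.85 to 6.90.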

How the results depend on the processing

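Of 90 gene differences followed, not all named here, 81 kept their sign under all alternatives that could be fitted and 9 did not, all small. The genes were followed for a small p in these same data. Some alternatives, such as the trend, the replicate block or another threshold, leave the estimate unchanged. A kept sign was therefore likely from the start. Withaferin A minus celastrol became −0.0050 for Gbp3 and 0.016 for Stat2 once scores for pituitary and thalamus were added to the model as covariates, and 0.0064 for Stat2 with celastrol replicate 2 and withaferin A replicate 1 both left out. H2-Eb1 after celastrol was 0.0059 with array weights, and H2-T24 after withaferin A −0.043 with renewed quantile normalization. Leaving out 1 array at a time gave ranges of −0.12 to 0.0014 for H2-Eb1 and −0.11 to 0.014 for Irf1 (celastrol versus DMSO), −0.13 to 0.033 for H2-Q2, −0.015 to 0.10 for H2-T24 and −0.025 to 0.058 for Oasl2 (withaferin A versus DMSO), and −0.024 to 0.17 for Ifit1 and −0.23 to 0.019 for Ifit3 (withaferin A versus celastrol).

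All genes called after celastrol numbered 115; they were 60 with no filter, 195 with an intensity trend and robust prior, 219 with array weights, 182 in a fit to the 2 groups compared, 0 with the covariates, 212 at an adjusted p under 0.10 and, without single arrays, from 6 (DMSO replicate 2 left out) up to 207 (withaferin A replicate 1 left out). After withaferin A, 0 became 8 (trend), 21 (weights), 5 (covariates), 8 (at 0.10) and 0 to 172 (without DMSO replicate 3). Between compounds, 7 became 11 (no filter), 13 (50th percentile filter), 29 (trend), 19 (weights), 0 (2 groups), 17 (both arrays out), 0 (covariates), 77 (at 0.10) and 0 to 56 (without withaferin A replicate 1). The cause of these shifts was not tested.

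The members called after celastrol, 1, became 0 with no filter, renewed quantile normalization, median centring, the 2-group fit or the covariates. The 50th percentile filter also gave 0, but Ifih1 fell below that filter and was not fitted there. The number was 2 with trend or at 0.10 (Ifih1 and Ifitm2) or with weights (Ifih1 and Ifitm1), and 0 to 2 without single arrays. Between compounds, Ifitm2 made 0 into 1 with trend and at 0.10, and 0 to 1 without single arrays. The members' median between compounds was 0.019 with renewed quantile normalization. It was −0.038 with the 50th percentile filter, which kept fewer members (7 above 0, 9 below). With the replicate number as a block, 54 genes and 0 members were called after celastrol. Same-numbered arrays correlated at −0.28 to 0.12, over 0.1 in 2 of 12 pairs, and differently numbered arrays at −0.20 to 0.23. Taken as deviations from means of 4 arrays, these values cannot tell whether the numbers pair the mice. With 4 arrays a group, differences of the size seen for most members could not be told from the spread.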
